A study of Arabidopsis with 36 samples.

Results

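RNA bound to heavy polysomes was compared with total RNA in 11-day Arabidopsis seedlings of an AtY34 overexpressor. The comparison uses 3 heavy polysome libraries and 3 total RNA libraries, 6 of the 36 samples of the series, and all 32801 nuclear loci of the gene table, of which 20171 could be tested. The samples were chosen by line and fraction alone, and the measured values played no part in the choice. Heavy polysomes and total RNA of wild type (Col-2), 3 libraries each, were set beside them, and the 3 light polysome libraries of the AtY34 line show where an RNA lies between the fractions. All these seedlings had the mock treatment. The labels call the AtY34 line an overexpressor and give neither a promoter, nor the number of independent lines, nor what AtY34 encodes. The title of the series names AtYchF1 and selective translation, and the series also holds an AtYchF1 overexpressor and an AtYchF1 knockdown, which are not analysed here. The labels do not tell whether the replicates are separate cultures, so a p-value here measures only the spread between libraries, which may be technical. That spread was estimated per gene over 18 libraries in 6 groups, which include the light polysomes of wild type.

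Polysome profiling sorts the RNA of an extract by density. Transcripts with many ribosomes sink into the heavy polysome fraction, those with few stay in the light polysomes, and total RNA holds all RNAs, including those that are never translated. The number of ribosomes on an mRNA depends on how often translation starts, how fast ribosomes move and how long the reading frame is. In green seedlings much of the mRNA encodes the photosynthetic apparatus, among it the chlorophyll-binding antenna proteins and the small subunit of Rubisco. A level in heavy polysomes is a share of the RNA in that fraction and not a number of ribosomes per transcript.

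The deposited values are TPM, a length-scaled share of a library, so library depth is unknown. Levels below are scaled TPM, that is nuclear TPM divided by 1 factor per library, and fold changes are heavy minus total on log2(scaled TPM + 1), a scale that understates the change of low genes. Adjusted p-values are from limma with Benjamini-Hochberg adjustment over the genes tested, and a gene passed at an adjusted p under 0.05. The heavy libraries had 17036 to 19090 loci above 0 and the total RNA libraries 16519 to 16872, and the scaling factors were 1.1 to 1.39 in heavy and 0.765 to 0.816 in total RNA libraries. The median of all genes tested moved by 0.03 with scaling and by 0.52 with TPM as deposited, so changes are read against that median. Light-harvesting mRNAs were abundant in both fractions, with summed levels of 26794 to 31330 in heavy polysomes and 37010 to 40421 in total RNA. The 7 root markers were all above 0 in both fractions, summing to 41.5 to 44.8 in heavy polysomes and 30.2 to 74.1 in total RNA. Seed markers summed to at most 6.17 in heavy polysomes and 9.54 in total RNA, with 5 and 6 of 8 at 0 in all 3 libraries, and 3 of 4 flower markers were at 0 throughout. In bulk RNA fewer cells of a type and less RNA per cell cannot be told apart.

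Heavy polysome replicate 2 stood apart from the other libraries in some measures. Its scaling factor was 1.39 and its number of loci above 0 was 19090, the highest of the 6 in each case. Over all genes tested its r was 0.86 with heavy replicate 1 and 0.869 with replicate 3, against 0.848 between replicates 1 and 3. Over genes whose mean reached 20 scaled TPM these were 0.846, 0.865 and 0.88. Loci annotated as long non-coding RNA summed to 43075, 16140 and 38293 scaled TPM in heavy polysome replicates 1 to 3, against 34281, 28429 and 32774 in total RNA. Replicate 2 was low, and the other heavy libraries lay above all the total RNA libraries. Of 106 long non-coding RNAs whose mean reached 20 scaled TPM, replicate 2 was the lowest heavy library in 101 (95.3%), against 42.3% of all 4371 genes of that level. Counts of calls and some genes and lists are also given without this library, whereas the RNA classes are given only with it.

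Among the genes that fell in heavy polysomes were structural and other non-coding RNAs. The spliceosomal RNAs U12 and U1.5, the 7SL RNA AT7SL-1, a part of the signal recognition particle, and the ncRNA AT1G15405 all fell. Over all 20171 genes 13 passed (0.0644%), 1 higher (0.00496%) and 12 lower (0.0595%), and 1795 had an unadjusted p under 0.05. The 12 lower genes held both called snRNAs, 3 loci annotated as ncRNA, AT7SL-1, which the reference table lists as protein-coding, and 6 other loci listed as protein-coding.

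**Figure D1:**
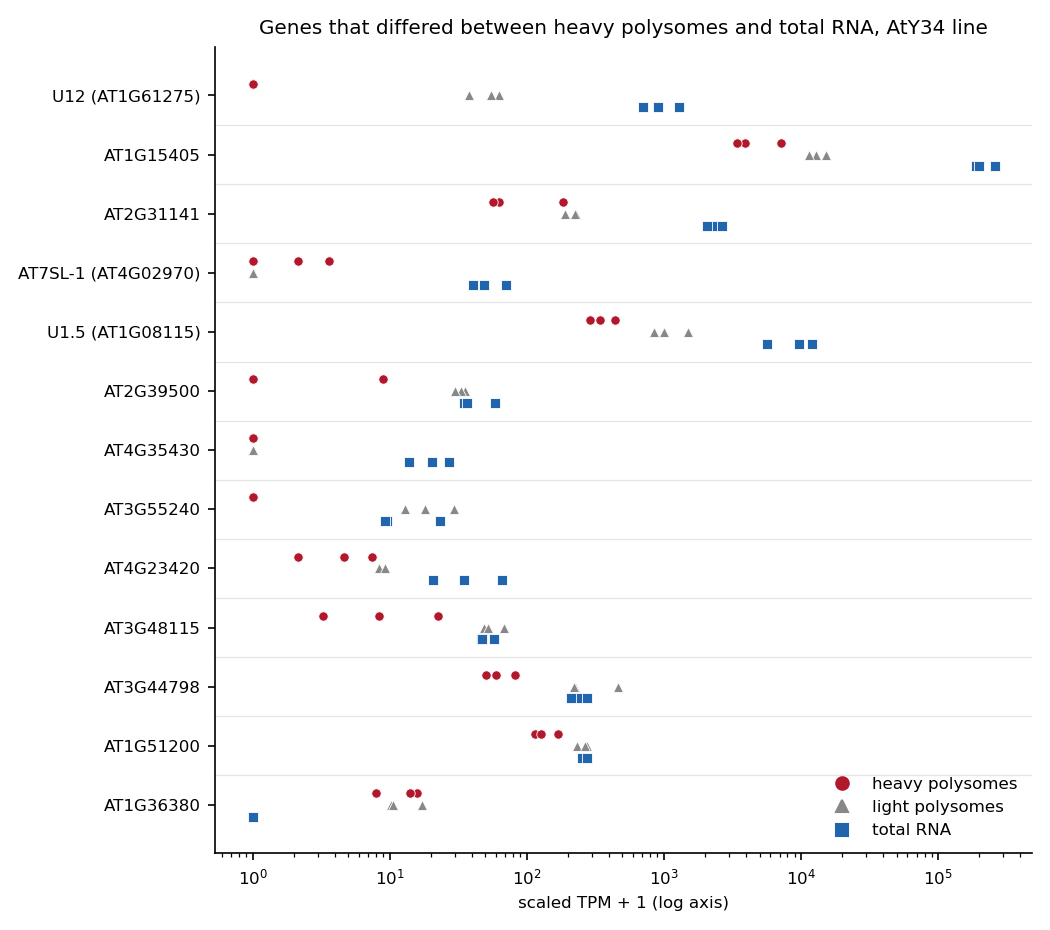
Level of the 13 genes that passed among all genes tested, in scaled TPM + 1 on a log axis, with a point per library of the AtY34 line (3 each of heavy polysomes, light polysomes and total RNA). In the first 12 genes the heavy libraries lie left of the total RNA libraries, and AT1G36380, at the bottom, is the 1 gene higher in heavy polysomes.

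U12, a spliceosomal RNA that acts on a minor class of introns, was listed at 0 in all 3 heavy libraries and at 1294, 703 and 910.4 in total RNA, with 61.4, 53.6 and 37.3 in light polysomes (adjusted p = 2.23e-04). The fractions did not overlap, and light polysomes lay between them. U1.5, an RNA of the U1 particle that binds splice donor sites, had 341, 289.7 and 438 in heavy polysomes, against 12094, 5639 and 9734 in total RNA. It was 25.7-fold lower in heavy polysomes (log2 fold change -4.63 with SE 0.45, adjusted p = 3.63e-05), with every heavy library below every total RNA library. The U2 and U4 copies that were tested did not pass: U2.4 was listed at 0 in all heavy libraries and at 12.1, 9.44 and 22.0 in total RNA (adjusted p = 0.0715), and U2.6 at 0 in heavy libraries and 6.07, 23.4 and 6.32 in total RNA (adjusted p = 0.139). All 8 snRNAs tested had negative values, with a median of -2.90, and in 4 of the 8 (50.0%) every heavy library lay below every total RNA library, against 6.17% of all genes tested. The 2 small nucleolar RNAs tested, U3B and U3D, which take part in processing ribosomal RNA, had negative values as well. U3B had 4.1, 8.54 and 0 in heavy polysomes and 40.2, 47.1 and 45.0 in total RNA (adjusted p = 0.35). U3D was listed at 0 in replicate 2 of both fractions and overlapped between them.

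AT1G15405, an ncRNA of unnamed function, took up 0.407% to 0.799% of the TPM of a heavy library and 14.9% to 19.9% of that of a total RNA library. Its level was 7233, 3885 and 3429.8 in heavy polysomes, against 190785, 260721 and 199037 in total RNA. That is 44.7-fold lower (log2 fold change -5.55 with SE 0.30, adjusted p = 1.20e-08), and the fractions did not overlap. With quantile normalization its log2 fold change was -2.97 (adjusted p = 0.0194). AT7SL-1 had 2.62, 1.15 and 0 in heavy polysomes and 39.8, 47.5 and 69.3 in total RNA (log2 fold change -4.71 with SE 0.75, adjusted p = 0.015), and it was listed at 0 in all light polysome libraries. The fractions did not overlap, but its call ended without heavy polysome replicate 3 or total RNA replicates 2 or 3. Of the other ncRNAs AT3G44798 had 81.4, 49.3 and 59.1 in heavy polysomes and 245, 208 and 276 in total RNA (log2 fold change -1.95 with SE 0.33, adjusted p = 0.0272). AT3G48115 had 21.5, 7.35 and 2.26 in heavy polysomes and 45.4, 46.1 and 56.8 in total RNA (log2 fold change -2.56 with SE 0.45, adjusted p = 0.0317). Both ncRNAs were on average higher in light polysomes than in total RNA, at 460, 223 and 222 for AT3G44798 and 48.1, 51.2 and 67.9 for AT3G48115. Both calls ended in 5 of the 6 fits that left out 1 library. That of AT3G48115 also ended with 0.1 in place of 1 added to the scaled TPM (adjusted p = 0.0525) and with a replicate block (adjusted p = 0.063).

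As classes, the 96 ncRNAs tested had a median of -0.34, with 12 of them (12.5%) below total RNA in every heavy library, against 6.17% of all genes tested. The 196 long non-coding RNAs had a median of -0.03 with 0 passing in limma, and the 19502 protein-coding loci a median of 0.03 with 1 higher and 7 lower. With heavy polysome replicate 2 in the fit, the long non-coding RNAs as a class lay near the median of all genes, which was 0.03. Their median without it is not given. The low level of heavy polysome replicate 2 in long non-coding RNAs moves with their values, and its part in them was not tested.

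**Figure D2:**
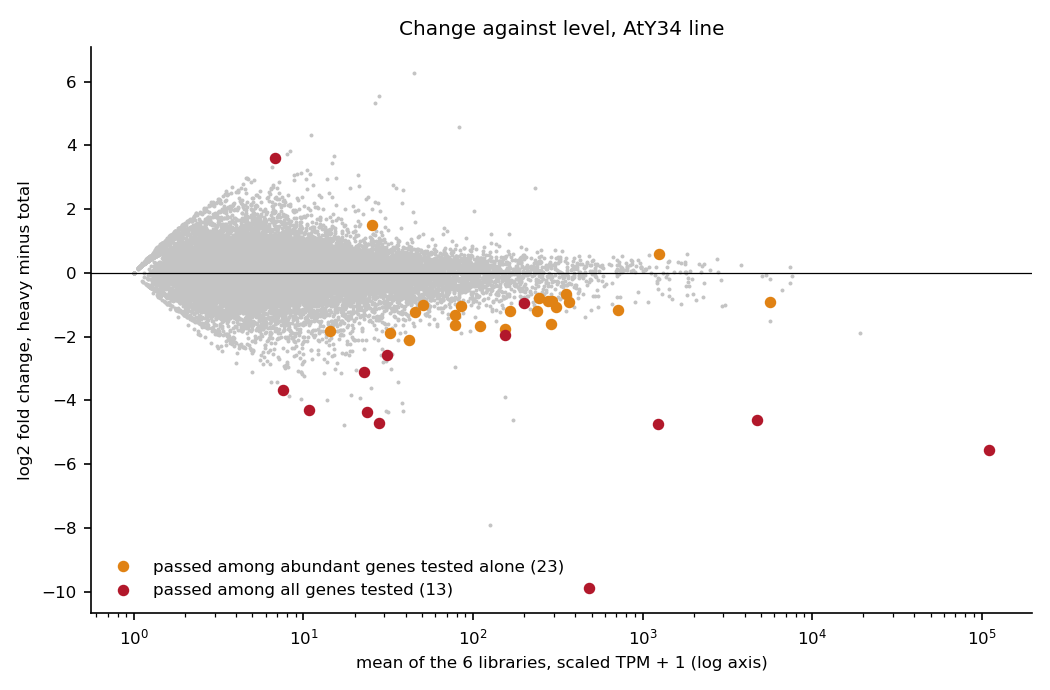
Log2 fold change of heavy polysomes against total RNA for the 20171 genes tested, against the mean of the 6 libraries in scaled TPM + 1 on a log axis. The 13 genes that passed are red, and the 23 that passed only when the 4371 abundant genes were tested alone are orange; of these 36, 3 lie above the zero line.

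The other 6 protein-coding loci that fell in heavy polysomes carry no symbol in the reference table and are given by locus. AT2G31141 had 184, 62.2 and 55.6 in heavy polysomes, 226, 226 and 189.6 in light polysomes and 2330.3, 2683 and 2073 in total RNA. It was 23.5-fold lower in heavy polysomes than in total RNA (log2 fold change -4.75 with SE 0.34, adjusted p = 7.04e-07), with every light library above every heavy one. AT2G39500 was listed at 0, 7.89 and 0 in heavy polysomes, against 57.6, 34 and 35.9 in total RNA (log2 fold change -4.35 with SE 0.58, adjusted p = 0.00225). With 0.1 in place of 1 added to the scaled TPM, its log2 fold change was -6.59 (adjusted p = 0.0271). AT4G23420 had 1.16, 6.46 and 3.68 in heavy polysomes and 34.1, 19.7 and 65.0 in total RNA, 10.5-fold lower (log2 fold change -3.10 with SE 0.47, adjusted p = 0.00835), and its call ended without total RNA replicate 3. AT1G51200, the most abundant of these loci after AT2G31141, had 115, 168 and 127 in heavy polysomes and 261, 254 and 273 in total RNA. It was 1.92-fold lower (log2 fold change -0.96 with SE 0.17, adjusted p = 0.0317), with light polysomes at 231, 274 and 264, level with total RNA. Its call ended in 5 of the 6 fits that left out 1 library, with quantile normalization (adjusted p = 0.151) and with TPM as deposited (log2 fold change -0.32, adjusted p = 0.395).

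The 2 further lower loci were listed at 0 in all heavy libraries. AT4G35430 was at 0 in heavy and in light polysomes and at 26.1, 12.8 and 19.3 in total RNA. It was listed at 0 in every library of wild type as well, so it passed the filter on low values only through the total RNA in which it is high and had to differ, and no p-value is given for it. AT3G55240 was at 0 in heavy polysomes, at 17.1, 12 and 28.5 in light polysomes and at 8.60, 8.23 and 22.4 in total RNA (adjusted p = 0.0252), so its light libraries were not below total RNA. Its call ended in 5 of the 6 fits that left out 1 library. AT1G36380 was the 1 gene higher in heavy polysomes, at 14.9, 13.0 and 7.01 there, at 9.33, 16.3 and 9.55 in light polysomes and listed at 0 in all 3 total RNA libraries (adjusted p = 0.00133). In wild type it was above 0 in total RNA, at 8.72, 9.43 and 5.63, with 20.3, 19.9 and 14.2 in heavy polysomes. It did not pass there (limma adjusted p = 0.4245). An exact 0 was more frequent at low levels. Of values, 36.9% were 0 where a gene's mean was 1 to 2 scaled TPM, 5.12% at 5 to 10 and 0.56% at 20 and over. No fold change is given here for these 3 loci, since a fitted one depends on the pseudocount. Across the 12 lower genes light polysomes lay between heavy polysomes and total RNA in 7, at or above total RNA in 3 and at or below heavy polysomes in 2.

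Leaving out heavy polysome replicate 2 raised the counts to 5 higher and 32 lower genes, and leaving out total RNA replicate 3 lowered them to 1 higher and 6 lower. The 4 genes that joined AT1G36380 without heavy polysome replicate 2, named here with their values in view, were PFD1, a subunit of the prefoldin chaperone, HSP23.6-MITO, a small heat shock protein of mitochondria, the calmodulin-like CML11, and AT5G24580. CML11 had 5.16, 0 and 14.7 in heavy polysomes, and it, HSP23.6-MITO and AT5G24580 were listed at 0 in all total RNA libraries of the AtY34 line. CML11 and HSP23.6-MITO were also at 0 in all heavy and total RNA libraries of wild type. They could meet the filter on low values only through heavy polysomes of the AtY34 line, where they are high, or through light polysomes. Nothing is therefore read from the calls of CML11 and HSP23.6-MITO without heavy polysome replicate 2. TCTP passed on the lower side in that fit (adjusted p = 6.46e-04), as did CAB1 (adjusted p = 0.0197), LHCA4 (adjusted p = 0.0488) and LHCB3 (adjusted p = 0.0416). With scaling, TPM as deposited and quantile normalization, U12, U1.5, AT1G15405 and AT2G31141 passed on the lower side. So did every other lower gene except AT1G51200, and AT1G36380 passed on the higher side in all of these settings. When the fit held these 6 libraries alone, U12 passed, and U1.5 (adjusted p = 0.109), AT1G15405 (adjusted p = 0.187), AT2G31141 (adjusted p = 0.166) and the other 9 of the 13 genes did not.

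Among abundant genes, mRNAs of known function passed as well. The 4371 genes whose mean over 18 libraries reached 20 scaled TPM were tested alone, a filter added after seeing the data: 31 passed (0.709%), 2 higher (0.0458%) and 29 lower (0.663%). TCTP, a translationally controlled protein of growth control, had 328, 665 and 367 in heavy polysomes and 956, 1023 and 930.5 in total RNA. It was 2.14-fold lower (log2 fold change -1.17 with SE 0.22, adjusted p = 0.0248 among abundant genes), with light polysomes at 566, 758 and 703, between the fractions on average. The fractions did not overlap, and the value of replicate 2 was the highest of the heavy libraries.

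ARFA1E, a small GTPase of vesicle traffic, fell too, with 108, 203 and 134 in heavy polysomes and 307, 359 and 317 in total RNA (log2 fold change -1.19 with SE 0.24, adjusted p = 0.0362 among abundant genes). ACBP6, which binds acyl-CoA, fell by 1.06 on the log2 scale (SE 0.22), and FAD2, the desaturase that makes linoleate in the endoplasmic reticulum, by 0.80 (SE 0.18). HCF153, needed for the cytochrome b6f complex, had 52.0, 45.3 and 35.0 in heavy polysomes, against 112, 126 and 92.7 in total RNA (log2 fold change -1.31 with SE 0.26, adjusted p = 0.0362 among abundant genes). STR16, a sulfurtransferase, had 168, 244 and 203 in heavy polysomes and 418, 367 and 349.8 in total RNA (log2 fold change -0.89 with SE 0.18, adjusted p = 0.0362 among abundant genes), and its light libraries, at 466, 515 and 609, were above total RNA. Light polysomes were also far above total RNA for AT3G08610, at 791, 676 and 781, with 177, 209.5 and 200.1 in heavy polysomes and 381, 342 and 354 in total RNA. Over the 29 lower abundant genes light polysomes lay between the other fractions in 18, at or above total RNA in 10 and at or below heavy polysomes in 1.

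The transcription factor ORA47, the RNA helicase DRH1 and the ubiquitin-conjugating enzyme UBC10 fell as well, at -1.89, -1.01 and -0.67. AT3G03990, which the reference table gives the synonym DWARF 14, the strigolactone receptor, had 83.2, 108.5 and 109 in heavy polysomes and 225, 204 and 257 in total RNA (log2 fold change -1.19 with SE 0.23, adjusted p = 0.0342 among abundant genes). XTH9, of a family of enzymes that remodel xyloglucan in the cell wall, was 1 of the 2 genes higher. It had 37.7, 41.4 and 30.7 in heavy polysomes and 11.5, 13.1 and 12 in total RNA, 3.01-fold higher (log2 fold change 1.51 with SE 0.31, adjusted p = 0.0432 among abundant genes). The fractions did not overlap, and its light libraries lay between at 20.5, 23.9 and 26.9. Its call ended in each of the 6 fits that left out 1 library, with quantile normalization and with a replicate block. In wild type XTH9 had 22.5, 19.6 and 11.8 in heavy polysomes and 21.1, 16.0 and 35.8 in total RNA (log2 fold change -0.38). The difference between the lines did not pass (limma adjusted p = 0.731).

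Of the 31, 8 also passed over all genes, and 23 passed only with the abundant genes tested alone. For each of those 23 the call ended in 4 to 6 of the 6 fits that left out 1 library. It ended for 13 with TPM as deposited, for 21 with quantile normalization and for all 23 with only the 6 libraries compared. A replicate block ended it for 4, which were FAD2, ORA47, DRH1 and XTH9. Counts over the left-out libraries ran from 6 lower without total RNA replicate 3 to 52 lower without heavy polysome replicate 2.

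The 2 main antenna families of photosystem II lay on opposite sides of total RNA. All 5 LHCB1 genes, which encode the most abundant chlorophyll a/b-binding protein, lay lower in every heavy library than in any total RNA library. All 3 LHCB2 genes, which encode their partner in the antenna trimers, lay higher in every heavy library. All 8 are abundant genes, of which 12% lay below and 8.63% above total RNA in every library (6.17% and 6.82% of all genes tested), and 53.5% had negative and 46.5% positive values. CAB1 (LHCB1) fell and LHCB2.2 rose among abundant genes, and over all genes 0 members of either family passed in limma. An unadjusted p under 0.05 was found for 8 of 8, against 662 of the 4371 abundant genes.

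CAB1 had 3386, 4903 and 3588 in heavy polysomes and 6978, 7889 and 7327 in total RNA, 1.87-fold lower (log2 fold change -0.92 with SE 0.18, adjusted p = 0.0342 among abundant genes). LHB1B2, another LHCB1 gene, had 5359, 6071 and 4936 in heavy polysomes and 7531, 8599 and 7587 in total RNA (log2 fold change -0.54 with SE 0.16, adjusted p = 0.316). CAB2, CAB3 and LHB1B1 had values of -0.66, -0.76 and -0.72. These LHCB1 copies are near-identical, so the split of reads between them is uncertain, while the sum over the 5 is less affected. LHCB2.2 had 1482, 1461 and 1533 in heavy polysomes and 1023, 943.5 and 1024 in total RNA, 1.5-fold higher (log2 fold change 0.58 with SE 0.13, adjusted p = 0.0382 among abundant genes). LHCB2.1 had 2153, 2072 and 2340.4 in heavy polysomes and 1546, 1377 and 1449.97 in total RNA (log2 fold change 0.59 with SE 0.15, adjusted p = 0.202), and LHCB2.3 had a value of 0.51.

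The ratio of summed LHCB2 to summed LHCB1 does not depend on the scaling. It was 0.334, 0.256 and 0.356 in heavy polysomes of the AtY34 line, 0.159, 0.112 and 0.134 in light polysomes and 0.143, 0.113 and 0.129 in total RNA. The mean was 0.315 ± 0.0528 in heavy polysomes and 0.129 ± 0.015 in total RNA (SD, n = 3 each), and the heavy libraries stood above all others while light polysomes overlapped total RNA. In wild type it was 0.362, 0.242 and 0.31 in heavy polysomes, against 0.123, 0.13 and 0.124 in total RNA. In both lines replicate 2 had the lowest ratio of the 3 heavy libraries. With TPM as deposited the LHCB1 median was -0.08 and the LHCB2 median 1.22, or -0.60 and 0.70 relative to the median of all genes under that scaling. All 5 LHCB1 genes then stayed below that median and all 3 LHCB2 genes above it, and the same held with quantile normalization.

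**Figure D3:**
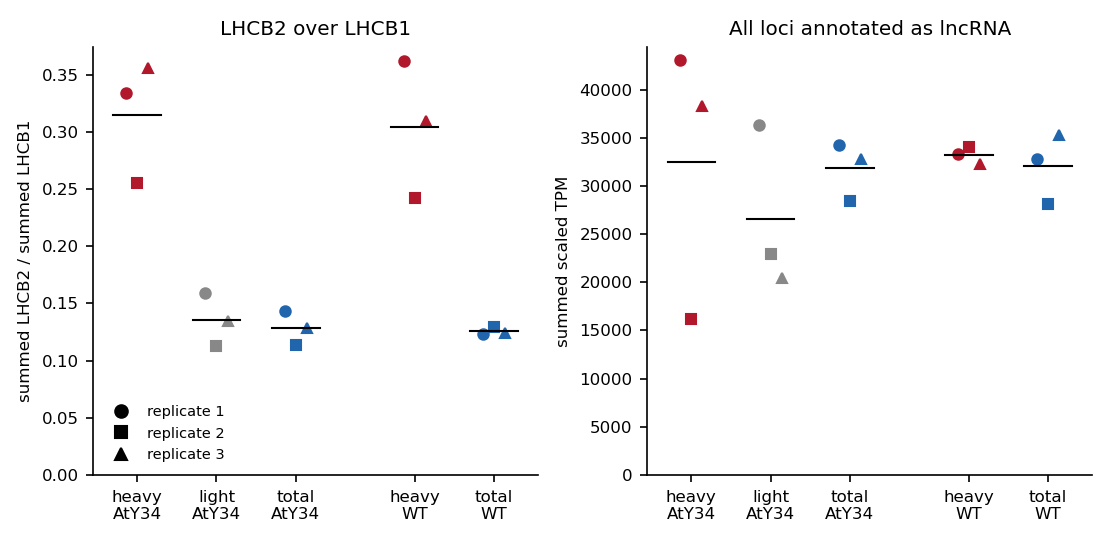
Left, summed LHCB2 over summed LHCB1 per library; right, summed scaled TPM of loci annotated as long non-coding RNA, in heavy polysomes, light polysomes and total RNA of the AtY34 line and in heavy polysomes and total RNA of wild type (WT). Each symbol is a library, its shape the replicate and the line the mean; the ratio is 0.256 to 0.356 in heavy polysomes and 0.113 to 0.143 in total RNA of the AtY34 line, and heavy polysome replicate 2 is low in the right panel at 16140 scaled TPM.

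LHCB3, the third trimer subunit, had 567, 1105 and 642 in heavy polysomes and 1363, 1519 and 1281 in total RNA (log2 fold change -0.91 with SE 0.24, adjusted p = 0.214). LHCA4, an antenna protein of photosystem I, had 918, 1449 and 906 in heavy polysomes and 1645, 1915 and 1779 in total RNA (log2 fold change -0.74 with SE 0.20, adjusted p = 0.221). Replicate 2 was the highest heavy library in both, and neither passed with all libraries. LHCB5, LHCB4.1 and LHCA1 had values of -0.52, -0.33 and -0.27, each without overlap, and LHCB6 had a value of 0.27. LHCB4.3, a minor antenna gene, had 17.0, 5.27 and 6.45 in heavy polysomes and 6.49, 6.17 and 0 in total RNA, with overlap (log2 fold change 1.32 with SE 0.96, adjusted p = 0.734). Over the 21 light-harvesting genes tested 15 values were negative and 6 positive, with a median of -0.27. Of these 21, 19 are abundant genes. Negative values were found in 46.8% of all genes tested and in 53.5% of abundant genes.

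Of 20 Calvin cycle genes 15 had negative values (median -0.28) and 0 passed in limma. An unadjusted p under 0.05 was found for 4 of the 20, against 662 of the 4371 abundant genes. In 7 of the 20 (35.0%) every heavy library lay below every total RNA library, and in 1 above, against 12% and 8.63% of abundant genes. GAPA, a plastid glyceraldehyde-3-phosphate dehydrogenase subunit, had 284, 430.2 and 319 in heavy polysomes and 464, 580 and 590 in total RNA (log2 fold change -0.67 with SE 0.19, adjusted p = 0.243). GAPB, its partner, had a value of -0.46, and RBCS2B and RBCS1A, small subunits of Rubisco, had values of -0.43 and -0.32; the small subunit genes are close copies, so the split between them is uncertain. The gene on the other side was the transketolase AT3G60750 at 0.35. With TPM as deposited 14 of the 20 lay below the median of all genes, and their median relative to it was -0.16, against -0.31 with scaling.

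Of the 9 genes for plastocyanin, ferredoxin, ferredoxin-NADP reductase, the Rieske protein and ATP synthase, 8 had positive values (median 0.37) and 0 passed in limma. An unadjusted p under 0.05 was found for 3 of the 9, against 662 of the 4371 abundant genes. In 5 of the 9 (55.6%) every heavy library lay above every total RNA library, against 8.63% of abundant genes. FED A, a ferredoxin, had 1100, 943 and 869.5 in heavy polysomes and 719, 676 and 790.1 in total RNA (log2 fold change 0.41 with SE 0.15, adjusted p = 0.417). DRT112, a plastocyanin, had 1714, 1521 and 1585 in heavy polysomes and 1179, 1177 and 1356 in total RNA (log2 fold change 0.38 with SE 0.15, adjusted p = 0.482). The photosystem II subunits had a median of 0.03 and those of photosystem I of 0.16, and the difference between these lists and the electron carriers was not tested.

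**Figure D4:**
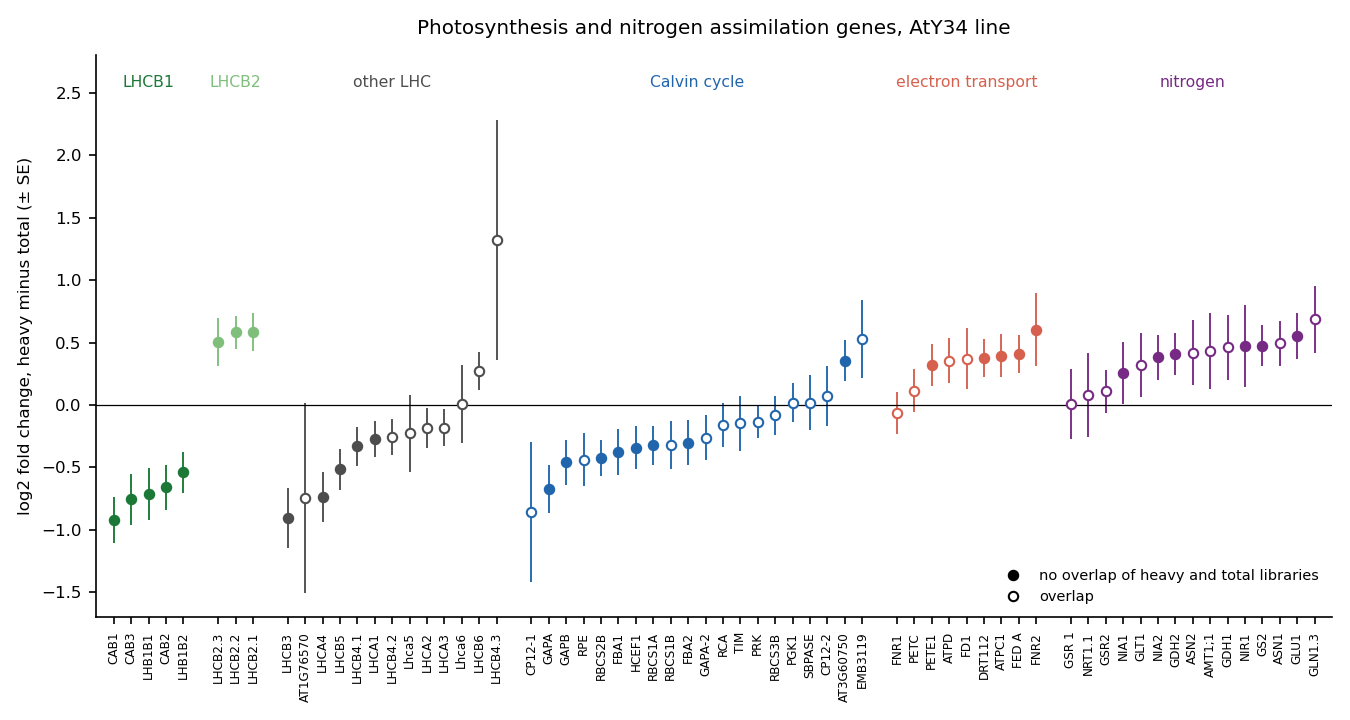
Log2 fold change of heavy polysomes against total RNA in the AtY34 line with its SE, for the tested genes of the light-harvesting, Calvin cycle, electron transport and nitrogen lists, ordered by value within a list. Filled points have no overlap between the 3 heavy and the 3 total RNA libraries; the 5 LHCB1 genes are all negative and the 3 LHCB2 genes and 15 nitrogen genes all positive.

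In photorespiration, which recycles the product of the oxygenase reaction of Rubisco, 7 of 13 values were positive (median 0.08, with -0.05 without total RNA replicate 1). GLDP1, the P-protein of glycine decarboxylase, had 492, 483 and 517 in heavy polysomes and 337, 342 and 349.5 in total RNA (log2 fold change 0.54 with SE 0.15, adjusted p = 0.239). GDCH, the H-protein of the same complex, had 157, 194.5 and 156 in heavy polysomes and 284, 251 and 264 in total RNA (log2 fold change -0.66 with SE 0.20, adjusted p = 0.316). Neither passed, and neither overlapped between the fractions, with the 2 subunits on opposite sides.

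The 15 nitrogen assimilation genes tested, of 16 listed, all had positive values, with a median of 0.42 and a range of 0.01 to 0.69, against 51.7% positive among all genes tested. In limma 0 of the 15 passed, and 6 had an unadjusted p under 0.05, against 662 of the 4371 abundant genes. In 6 of the 15 (40.0%) every heavy library lay above every total RNA library, and in 0 below, against 8.63% and 12% of abundant genes. GS2, the plastid glutamine synthetase, had 332, 383 and 395 in heavy polysomes and 257, 260.3 and 278 in total RNA (log2 fold change 0.48 with SE 0.17, adjusted p = 0.382). GLU1, a ferredoxin-dependent glutamate synthase, had 130.1, 160 and 151 in heavy polysomes and 104, 94.8 and 101 in total RNA (log2 fold change 0.55 with SE 0.18, adjusted p = 0.354), and the nitrate reductases NIA2 and NIA1 had values of 0.38 and 0.25. The list's median ran from 0.33 to 0.47 over the 6 fits that left out 1 library, and in wild type it was 0.36. Relative to the median of all genes it was 0.39 with scaling and 0.53 with TPM as deposited.

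Of 24 chlorophyll synthesis genes 14 had positive values (median 0.24). In 7 (29.2%) every heavy library lay above every total RNA library and in 2 below, against 6.82% and 6.17% of all genes tested. The list's median ran from 0.15 without total RNA replicate 2 to 0.33 without total RNA replicate 1. HEMB1 and HEMC, early enzymes of the tetrapyrrole pathway, had values of 0.94 and 0.63 (adjusted p of 0.364 and 0.362), and PORB, a protochlorophyllide oxidoreductase, had 107, 119 and 118 in heavy polysomes and 71.4, 96.5 and 66.9 in total RNA (log2 fold change 0.56 with SE 0.20, adjusted p = 0.391). PORA, another such oxidoreductase, had 3.73, 1.66 and 0 in heavy polysomes and 4.78, 3.02 and 3.32 in total RNA, with overlap.

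Of 224 loci listed as cytosolic ribosomal proteins 209 were tested, 139 with negative values and a median of -0.18, and in 36 (17.2%) every heavy library lay below every total RNA library, against 12% of abundant genes. Only 39 of the listed loci carry a ribosomal name in the reference table, and over those the median was -0.06 with 22 negative and 17 positive values and 5 (of 39) without overlap on the lower side. In limma 0 of the 209 passed, and 27 had an unadjusted p under 0.05, against 662 of the 4371 abundant genes. With TPM as deposited 117 of the 209 lay below the median of all genes. Initiation factors had 13 of 19 values positive (median 0.11), with EIF4A-2, a helicase that unwinds leaders, at 52.1, 49.6 and 50.7 in heavy polysomes and 36.6, 38.4 and 26.3 in total RNA (adjusted p = 0.617). Elongation and termination factors were split, 11 positive and 10 negative (median 0.01, from -0.09 to 0.06 when 1 library was left out). LOS1, elongation factor 2, had 167, 184 and 159.6 in heavy polysomes and 116, 137 and 108 in total RNA (log2 fold change 0.50 with SE 0.19, adjusted p = 0.419), whereas eEF-1Bb1, of the exchange factor for elongation factor 1A, had 107, 143 and 96.5 in heavy polysomes and 176, 228 and 184 in total RNA (log2 fold change -0.77 with SE 0.26, adjusted p = 0.354).

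Among genes of the TOR kinase pathway, which ties growth to nutrients, TCTP was the 1 that passed, and then only among abundant genes. RAPTOR1, a TOR partner, had 25.1, 21.5 and 19.6 in heavy polysomes and 11.7, 15 and 17.1 in total RNA (log2 fold change 0.57 with SE 0.27, adjusted p = 0.562). LST8-1, another partner, had a value of -0.57 with overlap. The 15 tested genes with conserved upstream reading frames, short frames in the leader that can hold back ribosomes, had 10 positive values. Their median was 0.08, close to that of all genes. In limma 0 of them passed or had an unadjusted p under 0.05, where 1795 of all 20171 genes tested had one.

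**Figure D5:**
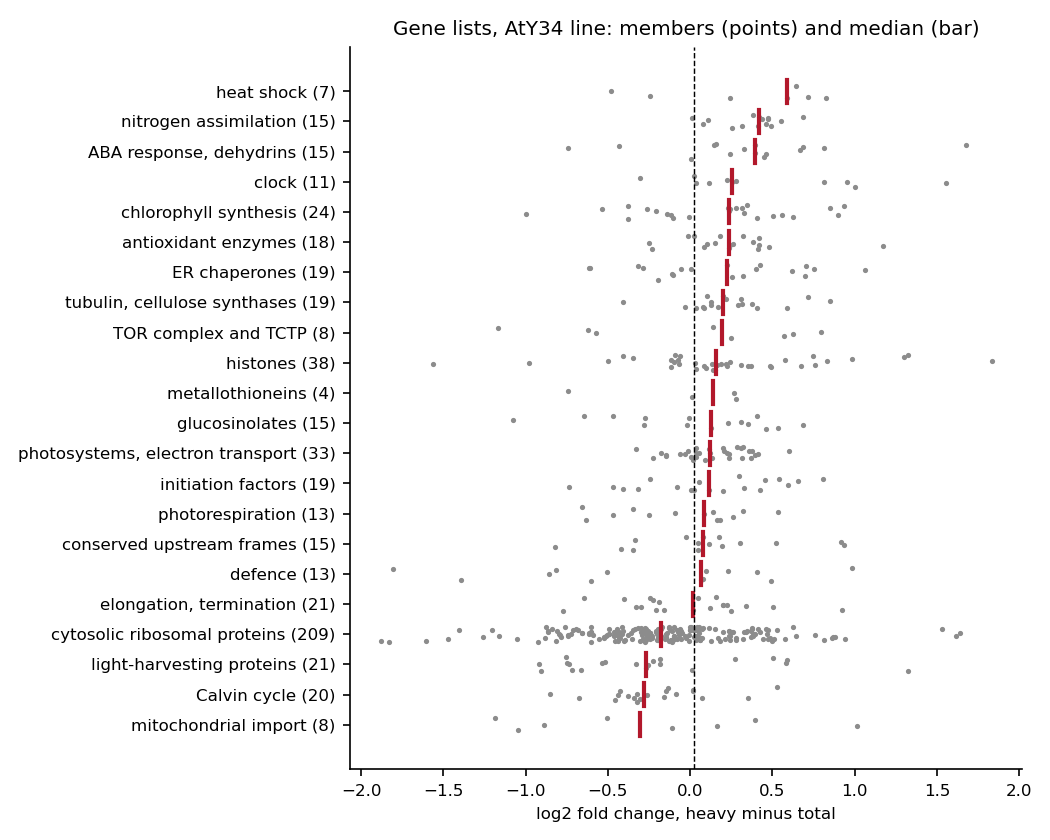
Log2 fold change of heavy polysomes against total RNA in the AtY34 line for the tested members of 22 gene lists (points, number tested in brackets, height within a row without meaning), with the median of each list as a red bar and that of all genes tested as a dashed line. Nitrogen assimilation lies right of the dashed line with a median of 0.42, and light-harvesting proteins and the Calvin cycle lie left of it at -0.27 and -0.28.

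In the remaining lists 0 members passed in limma, over all genes or among abundant genes. Chaperones of the endoplasmic reticulum had 11 of 19 positive values (median 0.22), with BIP2 at 52.9, 59.2 and 45.3 in heavy polysomes and 35.4, 35.2 and 25.3 in total RNA (log2 fold change 0.71 with SE 0.22, adjusted p = 0.343). BIP1 and the stress sensor kinase IRE1-1 had values of 0.62 and 0.70, and in 5 of the 19 (26.3%) heavy polysomes lay above total RNA in every library, against 6.82% of all genes tested. The list's median ran from 0.12 without total RNA replicate 2 to 0.38 without heavy polysome replicate 1. Abscisic acid response genes and dehydrins had 13 of 15 positive values (median 0.39), and ERD14, a dehydrin, had 414, 493 and 464 in heavy polysomes and 347.5, 301 and 345 in total RNA (log2 fold change 0.46 with SE 0.19, adjusted p = 0.482). Their median ran from 0.15 without total RNA replicate 2 to 0.57 without total RNA replicate 1. Heat shock genes had 5 of 7 positive values (median 0.59), with HSP81-2, a cytosolic HSP90, at 30.5, 40.8 and 32.5 in heavy polysomes and 18.4, 18.9 and 24.6 in total RNA (adjusted p = 0.35). Their median ran from 0.24 without heavy polysome replicate 1 to 0.74 without heavy polysome replicate 3.

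Histones had 26 of 38 positive values (median 0.16). The 8 histone H3 genes were all positive (median 0.62, with 0.40 without total RNA replicate 2 and 0.12 in wild type), 2 of them without overlap. Positive values numbered 3 of 8 for histone H4 (median -0.07), 7 of 12 for H2A, 6 of 7 for H2B and 2 of 3 for H1. AT5G10400, a histone H3 gene, had 106, 92.9 and 93.6 in heavy polysomes and 67.1, 30.0 and 28.0 in total RNA (log2 fold change 1.32 with SE 0.40, adjusted p = 0.3). Tubulins and cellulose synthases had 17 of 19 positive values (median 0.198) and antioxidant enzymes 15 of 18 (median 0.24). These medians moved to 0.11 without heavy polysome replicate 2 for the tubulin and cellulose list and to 0.13 without heavy polysome replicate 1 for the antioxidant list. Clock genes had 10 of 11 positive values (median 0.25), all 11 with overlap between the fractions. Small subunits of the mitochondrial import machinery had 5 of 8 negative values (median -0.31, from -0.64 without heavy polysome replicate 3 to -0.20 without total RNA replicate 1), with TOM5 at 58.7, 38.8 and 53.6 in heavy polysomes and 85.3, 70.7 and 133 in total RNA (log2 fold change -0.89 with SE 0.42, adjusted p = 0.564). MT1C, a metallothionein, had 599.8, 518 and 530.3 in heavy polysomes and 733, 980.1 and 1075 in total RNA (log2 fold change -0.74 with SE 0.25, adjusted p = 0.36), and the other 3 metallothioneins tested had positive values.

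Defence genes were split, with 7 of 13 values positive (median 0.06), and their median turned to -0.47 without heavy polysome replicate 1 and was 0.23 without total RNA replicate 1. CYP71A13, an enzyme of camalexin synthesis, had 16.1, 10.5 and 12.3 in heavy polysomes and 48.1, 27.3 and 33.0 in total RNA (log2 fold change -1.39 with SE 0.32, adjusted p = 0.134). It missed the threshold although the fractions did not overlap. Glucosinolate synthesis genes had 8 of 15 positive values (median 0.13, from 0.06 without total RNA replicate 3 to 0.30 without total RNA replicate 1).

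The shift from total RNA to heavy polysomes was then compared between the lines. The AtY34 line and wild type share no libraries, but their fits use the same estimate of a gene's spread. Of the 13 genes that passed in the AtY34 line 8 also passed in wild type in the same direction (61.5% of the calls in the AtY34 line and 30.8% of the 26 in wild type, where 0.129% of genes passed), and 11 had the same sign. The 8 were U12, U1.5, AT1G15405, AT2G31141, AT7SL-1, AT3G44798, AT1G51200 and AT4G23420. AT1G15405 had a value of -5.55 in the AtY34 line and -5.99 in wild type, and AT2G31141 of -4.75 and -5.12. Among abundant genes 15 passed in both, 48.4% of the 31 in the AtY34 line and 22.7% of the 66 in wild type. Pearson's r between the lines was 0.181 over all 20171 genes (Spearman's rho 0.181) and 0.495 over the 4371 abundant genes (rho 0.503), which describes genes, not independent replicates.

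A test of the difference between the lines, as an interaction over all 20171 genes, found 1 gene (0.00496%), and 1022 had an unadjusted p under 0.05. That gene was AT4G35430, which, as given above, entered the test only through the total RNA of the AtY34 line, the 1 group in which it is above 0, so nothing is read from its call. Among abundant genes 0 passed (0.0%), 158 with an unadjusted p under 0.05. The call of AT4G35430 ended when a TPM of at least 5 in 3 libraries was required and when only the 12 heavy and total libraries were fitted.

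PFD1 had the next smallest p and did not pass with all libraries (difference 2.86, SE 0.54, adjusted p = 0.372). In the AtY34 line it had 24.5, 7.09 and 23.0 in heavy polysomes and 5.13, 4.92 and 5.37 in total RNA. In wild type it had 9.50, 8.70 and 15.6 in heavy polysomes and 28.7, 31 and 30.8 in total RNA, so the fractions stood in opposite order without overlap in either line. Without heavy polysome replicate 2 of the AtY34 line, the lowest heavy library for PFD1, its difference passed (adjusted p = 0.00629). So did that of AT2G39500 (adjusted p = 0.00105), for 3 genes in all. AT3G07215, an ncRNA, AT5G18790 and AT3G55240 followed in order of p and did not pass (adjusted p of 0.372, 0.372 and 0.677). AT5G18790 had 20.4, 17.4 and 6.33 in heavy polysomes and was listed at 0 in all total RNA libraries of the AtY34 line, while in wild type it was above 0 in every total RNA library.

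AtYchF1 (AT1G30580), a GTP-binding protein and the gene that the series title names, did not pass. It had 179, 171 and 161 in heavy polysomes, 175, 194 and 215 in light polysomes and 243, 213 and 174 in total RNA of the AtY34 line (log2 fold change -0.29 with SE 0.25, adjusted p = 0.782). The heavy and total RNA libraries overlapped. Wild type had 33.2, 31.4 and 42.7 in heavy polysomes and 42.9, 32.1 and 52.7 in total RNA. Every heavy and total RNA library of the AtY34 line lay above all of these. The means were 170 in heavy polysomes and 210 in total RNA, against 35.8 and 42.5 in wild type. This difference in level was not tested here. In heavy minus total, the difference between the lines was -0.06 with an SE of 0.35. With TPM as deposited the value in the AtY34 line was 0.34 (adjusted p = 0.488), which is -0.17 relative to the median of all genes, against -0.31 with scaling.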

How the data were processed

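RNA was measured in heavy polysome, light polysome and total RNA fractions of 11-day seedlings, in stranded libraries depleted of ribosomal RNA, per the labels' protocols. The deposited gene table holds TPM, which the authors made with salmon per the table's name, and the submitters' processing notes also name FastQC, MultiQC, STAR and build TAIR10, with versions not given in the sources used here. TPM keeps no depth, so no counting error can be given.

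Nuclear TPM was divided by a median-ratio factor per library from 9431 genes with a TPM of at least 1 in all 18 libraries. Genes with a TPM of at least 1 in at least 3 of 18 libraries were tested on log2(scaled TPM + 1) with limma 3.58.1 (R 4.3.3, mean-dependent prior, 6 groups, 12 residual degrees of freedom) and Benjamini-Hochberg adjustment over 20171 genes. No 2 of the 18 libraries were identical (0 of 153 pairs). With 3 against 3 libraries an exact permutation test of 1 gene cannot go below 0.1. The pipeline was tested on simulated data. Python 3.11.15, pandas 2.3.3 and matplotlib 3.10.9 made tables and figures. Of 36 sample columns 18 were matched to no group compared here and were not used.

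Symbols and roles come from the RefSeq gene table of assembly TAIR10.1, which matched 19954 of the 20171 genes by locus. Members, lists and tests were chosen with earlier results of these data known. Genes were named by rule: among those that passed whose mean reached 5 scaled TPM in heavy polysomes or total RNA and no overlap, the 15 with the largest change and the 10 with the highest mean in each direction, any list member that passed, the 5 with the smallest p for the difference between lines, and AtYchF1. Other genes, including those that passed among abundant genes and single list members, were chosen after their values were seen. Alternatives were other scalings, pseudocounts, filters, samples in the fit, a replicate block and leaving out each library.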

Additional observations from a re-analysis of the deposited data

Results flagged for a closer look

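AT4G35430 differed between the lines in the test of the difference itself (-4.30 on the log2 scale, limma, a fitted value that depends on the pseudocount). It was listed at 0 in all heavy and light libraries and all wild-type libraries and at 26.1, 12.8 and 19.3 in total RNA of the AtY34 line. It passed the filter on low values only through that group and had to differ, so its call supports nothing. The call ended with a TPM of at least 5 in 3 libraries, with 12 libraries fitted, and with the replicate block.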

How the results depend on the processing

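Over all genes, 1 passed higher and 12 lower. Higher genes numbered 696 with TPM as deposited, 4 with a pseudocount of 0.1, 2 without a filter, 0 with only the 6 libraries and 2 among abundant genes, and 1 to 5 when a library was left out. Lower genes numbered 2 with only the 6 libraries, 29 among abundant genes, and 6 to 32 when a library was left out; TPM as deposited gave 18 and quantile normalization 11. Of all calls 97.5% were higher with TPM as deposited, against 7.7% with scaling. The difference between lines, 1 gene, numbered 3 with a pseudocount of 0.1, 0 with the stricter filter, 0 with 12 libraries, 0 among abundant genes, and 1 to 3 with a library left out.

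Among abundant genes, 2 higher and 29 lower, the counts were 1166 higher with TPM as deposited, 0 and 9 with quantile normalization, 1 and 6 with only the 6 libraries, and 0 to 2 and 6 to 52 with a library left out. The value of AtYchF1 turned to 0.34 with TPM as deposited, or -0.17 relative to the median of all genes, against -0.31 with scaling. The causes were not tested. The replicate block gave 1 higher and 18 lower genes over all genes, 5 and 50 among abundant genes, and 0 for the difference between lines. Whether the replicate numbers pair the samples is not known. Deviations of same-numbered heavy and total libraries had an r of 0.038, 0.122 and 0.005 over abundant genes, and not every library correlated best with its own number. Replicate 2 of the AtY34 line had the lowest LHCB2 to LHCB1 ratio in heavy polysomes (0.256), light polysomes (0.112) and total RNA (0.113). In wild type replicate 2 had the lowest ratio in heavy polysomes (0.242) and the highest in total RNA (0.1295). The comparison by protein length was not run. Without depth, zeros and failed estimates cannot be told apart.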
